A study of Mus musculus with 4 samples.

Results

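The glutathione S-transferases (GST), UDP-glucuronosyltransferases (UGT) and sulfotransferases (SULT) were described in bulk tumour RNA from a mouse model of liver cancer. Members were the protein-coding genes of the deposited table whose symbols carry a Gst, Mgst, Ugt or Sult family name. This gave 68 of 55487 genes, with 25 GST genes (3 of them microsomal), 22 UGT genes and 21 SULT genes. Messenger RNA had been sequenced from hepatocellular carcinoma tissue of 4 mice of the Alb-cre H11-myc model, in which c-Myc drives spontaneous tumours. All 4 are given under this model, and the labels do not spell out which of its alleles the wild type mice carry. The labels give 2 mice as wild type and 2 as carrying a liver conditional knockout of Tfrc, the transferrin receptor that imports iron, and the series asked how Tfrc acts on the tumour microenvironment. Alb-cre acts in hepatocytes, so other cells of a tumour keep the gene. The labels give no age, sex, strain background or deleted exons.

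These enzymes make up much of the conjugation step of liver detoxification. GST enzymes add glutathione to electrophiles, UGT enzymes add a sugar, usually glucuronic acid, to bilirubin, steroids and drugs, and SULT enzymes add sulfate from the donor PAPS to phenols, steroids and bile acids. The conjugates are more soluble and leave the hepatocyte through membrane transporters. Many members are highest in hepatocytes, and several are known targets of the transcription factor NRF2 or of the xenobiotic receptors CAR, PXR and AHR.

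Total counts ran from 15918349 to 17052943 per library. The mitochondrial share of counts ran from 4.13% in wild type 2 to 16.6% in knockout 2. Summed hepatocyte markers (12 of 12 tested, 0 separating the groups) were at 19023 and 62587 CPM in wild type 1 and 2 and at 46368 and 39479 CPM in knockout 1 and 2, so the wild type mice lay further apart than the groups. Tfrc had 8441 and 3603 counts in wild type 1 and 2 and 5407 and 3244 in knockout 1 and 2. The groups overlapped, so Tfrc did not check the labels, and "knockout" below means the libraries labelled so. Y-linked Ddx3y had at least 271 counts in every library and Xist at most 3. In bulk tissue, fewer cells of a type and less RNA per cell cannot be told apart.

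No member passed the threshold between the groups. At an unadjusted p under 0.05, Mgst2, Ugt8a, Gstm3, Sult1c2, Gsta4, Gstm5, Ugt1a6a, Gstm2 and Ugt1a10 had lower values in knockout, and Sult2a1 and Sult2a5 higher ones. Of the 68 members, 52 passed a filter on low counts and were tested with all 16310 tested genes of the table. By edgeR's quasi-likelihood test, 0 of 52 had an adjusted p under 0.05, as did 0.00% of all tested genes, with a smallest adjusted p of 0.434 among the members and 0.0595 among all genes. At an unadjusted p under 0.05 there were 11 members (21.2%), 2 higher and 9 lower, against 8.30% of all tested genes (3.95% higher and 4.35% lower). Of the 2 higher members, Sult2a5 passed the filter only through its knockout libraries, so it supports no count over the group. DESeq2 called 2 members, Sult2a1 and Mgst2, against 0.907% of all genes. Limma-voom called 0 members and 0.00613% of all genes.

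The families differed in the sign of their median. Changes are given as log2 fold changes of knockout over wild type, called log2 ratios here, on TMM-scaled counts. CPM values, the counts scaled to a common library size, are on the same scale. The median log2 ratio was -0.40 over 23 tested GST genes, -0.42 over 18 UGT genes and 0.53 over 11 SULT genes, beside 0.005 over all tested genes. A negative value was found for 20 GST, 12 UGT and 3 SULT genes, 67.3% of the tested members against 49.6% of all tested genes. An absolute log2 ratio of at least 1 was found for 14 of the 52 tested members, against 13.1% of all tested genes. Of the 52, 10 had such a ratio and also separated the groups, against 11.0% of all tested genes. In 24 members (46.2%) both libraries of one group lay beyond both of the other, near the 42.0% of all tested genes. Of these, 16 were lower (30.8%, against 20.1%) and 8 higher (15.4%, against 21.9%). Sult2a3 and Sult2a5 are counted in the 14, the 10, the 8 and the SULT median. Both passed the filter on low counts only through their knockout libraries, so they support no count over the members. At a mean of at least 5 CPM, where neither was tested, the SULT median was 0.405 over 6 genes. Without wild type 2 the family medians were -0.002 for GST, 0.08 for UGT and 1.45 for SULT, without wild type 1 the GST median was -0.83, and without knockout 2 the SULT median was 0.14.

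**Figure D1:**
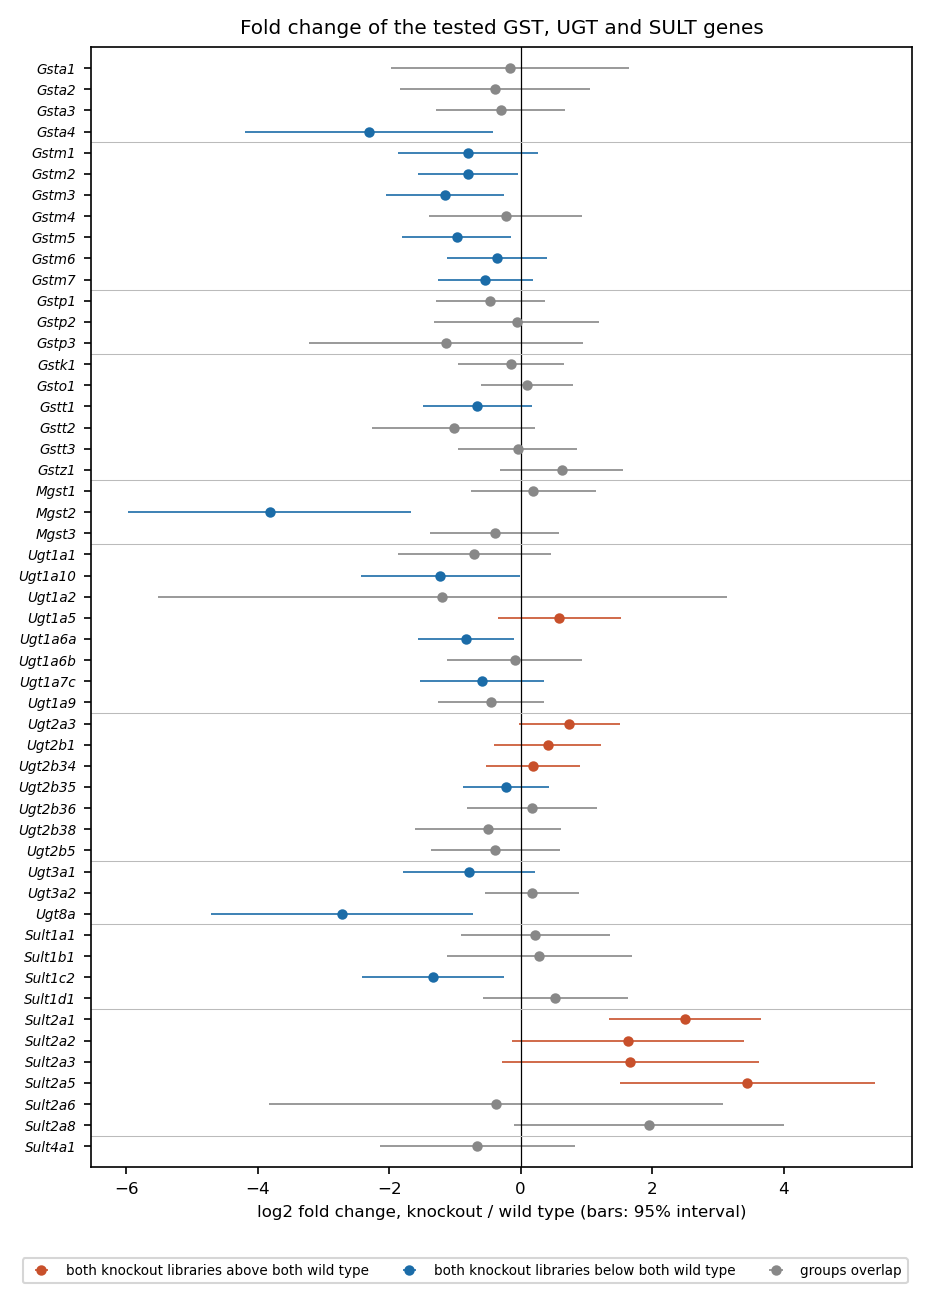
Log2 ratio (knockout over wild type) of each of the 52 tested members, with its 95% interval as a bar. Colours mark members whose groups do not overlap. The GST mu genes lie left of 0, and Mgst2 and Ugt8a lie farthest left. Sult2a1 and Sult2a5 lie right of 0 with their whole interval, but Sult2a5 passed the filter on low counts only through its knockout libraries. The adjusted threshold was passed by 0 members.

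Levels across genes are compared as FPKM, which corrects for gene length. The GST family was led by Gstm1, with 205 and 307 FPKM in wild type 1 and 2 and 177 and 123 FPKM in knockout 1 and 2. Gstm3 (mean over the 4 libraries 125 FPKM), Mgst1 (124 FPKM) and Gsta3 (123 FPKM) followed at nearly equal means. Gstm1 took 22.8% and 25.1% of the summed GST FPKM in the wild type libraries and 22.4% and 17.6% in knockout. Among UGT genes Ugt2b5 had the highest mean (115 FPKM), followed by Ugt1a1 (72.9 FPKM) and Ugt2b36 (54.7 FPKM). Among SULT genes Sult1a1 led with a mean of 37.7 FPKM. In the plot of levels by library, wild type 2 was the highest library for 26 of the 52 tested members (50%), against 31.4% of all tested genes. At a mean of at least 20 CPM, a limit chosen after seeing the data, it was highest for 17 of 33 members (51.5%). The share of all tested genes at that level was 39.4%.

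**Figure D2:**
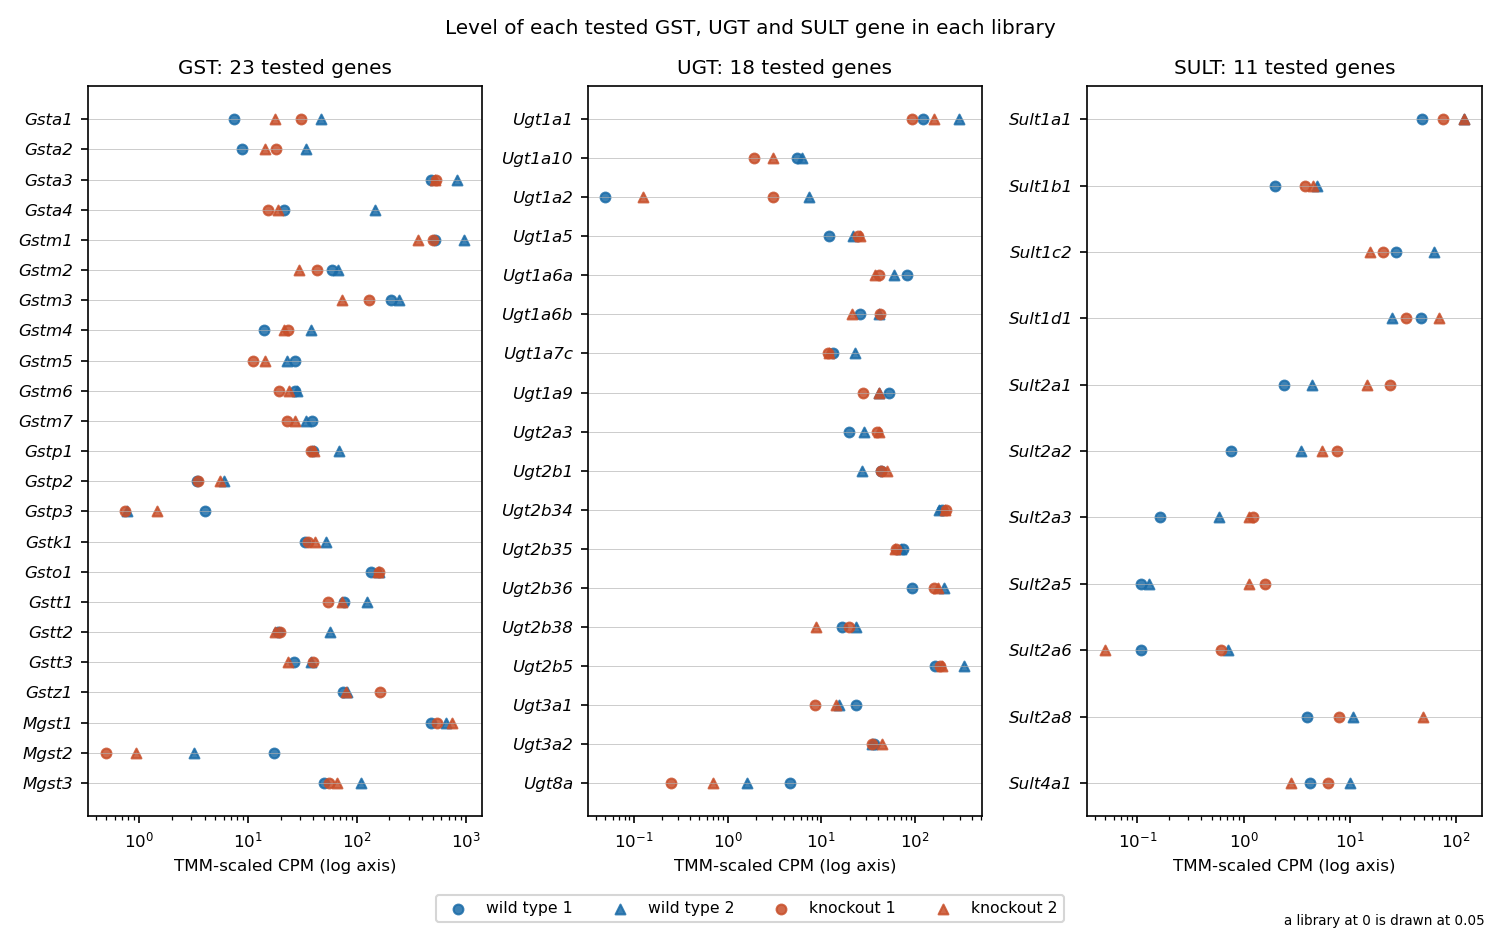
TMM-scaled CPM of each tested member in each of the 4 libraries, on a log axis. Circles and triangles are replicates 1 and 2, and a library at 0 is drawn at 0.05. Wild type 2 is the rightmost point for 15 of the 23 GST genes.

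The GST mu genes, which encode cytosolic enzymes abundant in rodent liver, lie side by side on chromosome 3 (107895821 to 108044894, mm10). All 7 had a negative log2 ratio (median -0.80), under both other scalings as well. In 6 of the 7 both knockout libraries lay below both wild type libraries, against 20.1% of all tested genes. Gstm3 had 205 and 245 CPM in wild type 1 and 2 and 130 and 72.7 CPM in knockout 1 and 2. The knockout libraries were both low and lay further apart than the wild type pair. Its log2 ratio was -1.15 (SE 0.38, 95% interval -2.05 to -0.26), with an edgeR adjusted p of 0.547. Gstm1, the member with the highest mean FPKM, had 525 and 976 CPM in wild type and 499 and 365 CPM in knockout. Knockout 1 lay just below wild type 1, and wild type 2 stood alone at the top. The log2 ratio of Gstm1 was -0.80 (SE 0.45), and -0.28 without wild type 2.

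Gstm2 had 59 and 66.9 CPM in wild type and 42.9 and 29.5 CPM in knockout, a log2 ratio of -0.80 (SE 0.32). Gstm5, whose product is best known from testis and brain, had 27 and 22.8 CPM in wild type and 11.1 and 14.3 CPM in knockout, a log2 ratio of -0.97 (SE 0.35). For both genes the sign held without any 1 library, with ranges of -1.11 to -0.55 for Gstm2 and -1.16 to -0.82 for Gstm5. An antisense gene, 4933431E20Rik, shares exon sequence with Gstm5 on the opposite strand and had 912 counts in all against 1252 for Gstm5, so with no strand stated reads of the pair cannot be told apart. Gstm7 (38.5 and 34.6 against 23 and 27.4 CPM) and Gstm6 (26.9 and 28.2 against 19.1 and 23.8 CPM) were separated by less. In Gstm4 wild type held both the lowest (14 CPM) and the highest library (38.1 CPM), and its log2 ratio of -0.23 turned to 0.67 without wild type 2. The 3 nearest tested protein-coding genes on the side of lower coordinates, Eps8l3, Csf1 and Ahcyl1, had log2 ratios of -3.31, -0.16 and 0.03. On the other side Ampd2, Gnat2 and Gnai3 had 0.54, 0.99 and 0.06. Of these 6 neighbours, only Eps8l3 was separated downward, as were 20.1% of all tested genes.

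**Figure D3:**
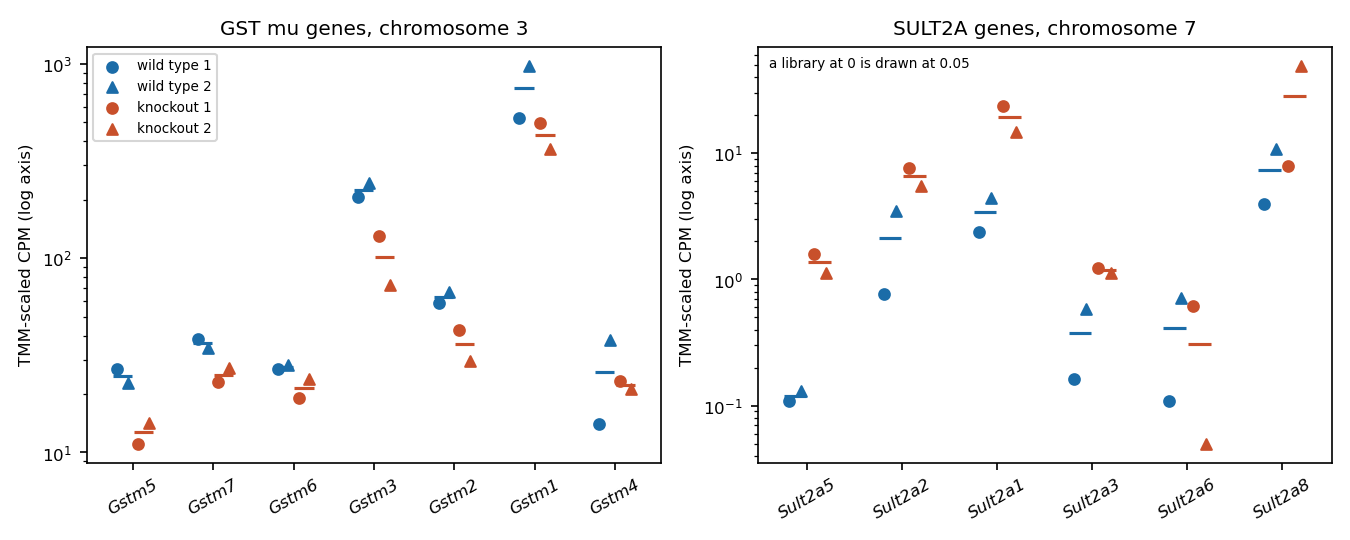
TMM-scaled CPM (log axis) of the tested GST mu and SULT2A genes in the order they lie on their chromosomes. Points are libraries and short lines are group means. Gstm3 lies between 72.7 and 130 CPM in knockout and between 205 and 245 CPM in wild type, and Sult2a1 between 14.6 and 23.8 CPM in knockout and between 2.4 and 4.42 CPM in wild type.

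The alpha class includes Gsta3, a constitutive liver enzyme known in mice for detoxifying aflatoxin epoxide, and Gsta4, which conjugates the lipid peroxidation product 4-hydroxynonenal. Gsta3 had 481 and 829 CPM in wild type and 536 and 524 CPM in knockout. Knockout lay within the wild type range, and the log2 ratio was -0.31 (SE 0.41, 95% interval -1.29 to 0.68). Gsta4 had 21.3 and 146 CPM in wild type and 15.2 and 18.7 CPM in knockout. Wild type 2 alone was high. The log2 ratio of Gsta4 was -2.30 (SE 0.80, edgeR adjusted p = 0.557), -0.33 without wild type 2, and -3.13 without wild type 1, where the gene passed (adjusted p = 8.66e-03, against 1.36% of all genes called).

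Gsta1 and Gsta2, inducible alpha enzymes, also had their highest library in wild type 2 and their lowest in wild type 1. Gsta1 was at 7.52 and 47.1 CPM in wild type and 31 and 17.7 CPM in knockout, and its log2 ratio of -0.17 turned to 1.69 without wild type 2. The coding sequence of Gsta1 was 98% identical to that of Gsta2 and 99.7% identical to that of Gm3776, a gene outside the naming rule with 879 counts. No source used here says how reads that match several genes were counted, so the split between these genes is uncertain. Gstp1, the pi class enzyme, had 40 and 68.5 CPM in wild type and 38.2 and 40.4 CPM in knockout (log2 ratio -0.46, SE 0.35). Gstp2 shares 98.1% of its coding sequence with Gstp1 and had 3.43 and 5.98 against 3.45 and 5.55 CPM. Gstp3 had 4.03 CPM in wild type 1 and at most 1.45 CPM in the other libraries.

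Upstream sequence was read for the 60 members found in the RefSeq promoter table (GRCm38.p6), as the 250 bases before each start. The NRF2 motif core TGACNNNGC, on either strand, was in 4 of 72 member windows (5.56%), those of Gsta3, Gstm5, Gstm7 and Mgst1, against 10.2% of 32851 windows of the same length. The AHR motif core GCGTG, on either strand, was in 13 (18.1%), against 28.2%. The core TGACNNNGC in the Gstm5 window overlaps a GCGTG core on the other strand. In Gstm7 the NRF2 core was in the window chr3:107931615-107931864 and not in the window chr3:107931818-107932067. The Gstm7 and Mgst1 cores lie inside the annotated gene spans, before a start within them. Gstm5 and Gstm7, with the NRF2 core, were separated downward, as was Gstm1, without it, while Gsta3 and Mgst1, with it, overlapped between groups. The windows of Gsta3 and Gstm1 are shown as those of the alpha and mu genes with the highest FPKM. Capitals mark the NRF2 core in Gsta3 (chr1:21240335-21240584, plus strand) and the AHR core in Gstm1 (chr3:108017974-108018223, minus strand), each 5′ to 3′. A match is a description of letters and not of a bound site.
Gsta3: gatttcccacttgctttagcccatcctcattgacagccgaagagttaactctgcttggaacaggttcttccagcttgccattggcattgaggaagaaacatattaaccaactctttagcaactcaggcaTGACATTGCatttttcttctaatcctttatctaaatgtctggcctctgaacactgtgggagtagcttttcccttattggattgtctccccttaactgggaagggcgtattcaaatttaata
Gstm1: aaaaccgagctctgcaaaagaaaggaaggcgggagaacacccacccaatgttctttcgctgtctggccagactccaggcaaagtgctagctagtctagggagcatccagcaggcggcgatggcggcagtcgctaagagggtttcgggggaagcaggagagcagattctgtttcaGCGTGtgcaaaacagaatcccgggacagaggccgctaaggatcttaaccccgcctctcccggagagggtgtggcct

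The remaining cytosolic classes had mixed signs. Gstt1, a theta enzyme for small halogenated compounds, had 76.8 and 123 CPM in wild type and 54.1 and 72.7 CPM in knockout (log2 ratio -0.66, SE 0.35), with knockout 2 close below wild type 1. Gstt2 was at 57.1 CPM in wild type 2 and between 17.9 and 19.6 CPM in the other libraries. Its log2 ratio of -1.02 became -0.002 without wild type 2 and -1.63 without wild type 1. Each of these fits leaves 1 wild type library, so the spread between wild type mice is not measured there. Gstz1, the maleylacetoacetate isomerase of tyrosine breakdown, had 75.5 and 81.9 CPM in wild type and 162 and 80 CPM in knockout. Knockout 1 alone was high, and the log2 ratio of 0.62 was 0.003 without it. The opposite-strand gene Pomt2 shares exon sequence with Gstz1.

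Gsto1, the omega enzyme that reduces dehydroascorbate and methylated arsenic, varied little, at 135 and 159 CPM in wild type and 160 and 155 CPM in knockout. Its log2 ratio was 0.10 (95% interval -0.60 to 0.80). Gstk1, the kappa enzyme of mitochondria and peroxisomes, had 33.2 and 52.6 against 36 and 41.3 CPM, and Gstt3 26.8 and 38.2 against 39.7 and 23.4 CPM. Gm20441 overlaps Gstt3 on the same strand, with 217 counts against 2094. Gsto2, with 10 counts in all, and Gstt4, with 1, were not tested.

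The microsomal enzymes are membrane proteins of a separate evolutionary origin. Mgst2, which can make leukotriene C4, had 317 and 49 counts in wild type 1 and 2 and 8 and 15 in knockout 1 and 2. Those are 17.3 and 3.18 CPM against 0.493 and 0.946 CPM, so both knockout libraries were low and wild type 1 lay far above wild type 2. The log2 ratio was -3.82 (SE 0.91, 95% interval -5.97 to -1.67), with an edgeR adjusted p of 0.545. DESeq2 called it (-3.84, adjusted p = 2.13e-03), as did edgeR without wild type 2 (-4.57, adjusted p = 0.0266, against 0.331% of all genes called), and without wild type 1 the value was -2.16. Mgst1 is an abundant enzyme of the endoplasmic reticulum and outer mitochondrial membrane. It had 478 and 657 CPM in wild type and 543 and 754 CPM in knockout (log2 ratio 0.19, 95% interval -0.76 to 1.14), and the groups overlapped. Mgst3 had 50.1 and 109 against 55.7 and 65.4 CPM.

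Several lists of markers of other cell types also had mostly negative log2 ratios. Of 11 macrophage or Kupffer cell markers, all tested, 11 had a negative log2 ratio, and their summed level was 749 and 1135 CPM in wild type and 414 and 277 CPM in knockout. Of 10 endothelial markers, 9 were negative, with sums of 271 and 349 CPM in wild type and 202 and 192 CPM in knockout. Of 11 stellate cell or fibroblast markers, 9 were negative (1507 and 1322 against 668 and 1225 CPM). Of 9 neutrophil markers, 6 were tested and all were negative, with sums of 25.2 and 68.7 CPM in wild type and 14 and 14.8 CPM in knockout, and Ly6g was at 0 in every library. Among the 6, Retnlg (1.09 and 2.92 against 0.247 and 0 CPM) passed the filter on low counts only through its wild type libraries. It supports no count over the neutrophil list. Of 6 erythroid markers, 5 were tested and all were negative, with sums of 956 and 2172 CPM against 212 and 150 CPM. T cell markers went the other way, with 7 of 9 positive and 5 (55.6%) separated upward, against 21.9% of all tested genes. The T cell sums still overlapped (25.1 and 9.94 against 21.1 and 18.1 CPM). No macrophage, endothelial, stellate or T cell marker was at 0 in every library. The part of these cells in the values of Mgst2 and the mu genes was not tested.

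**Figure D4:**
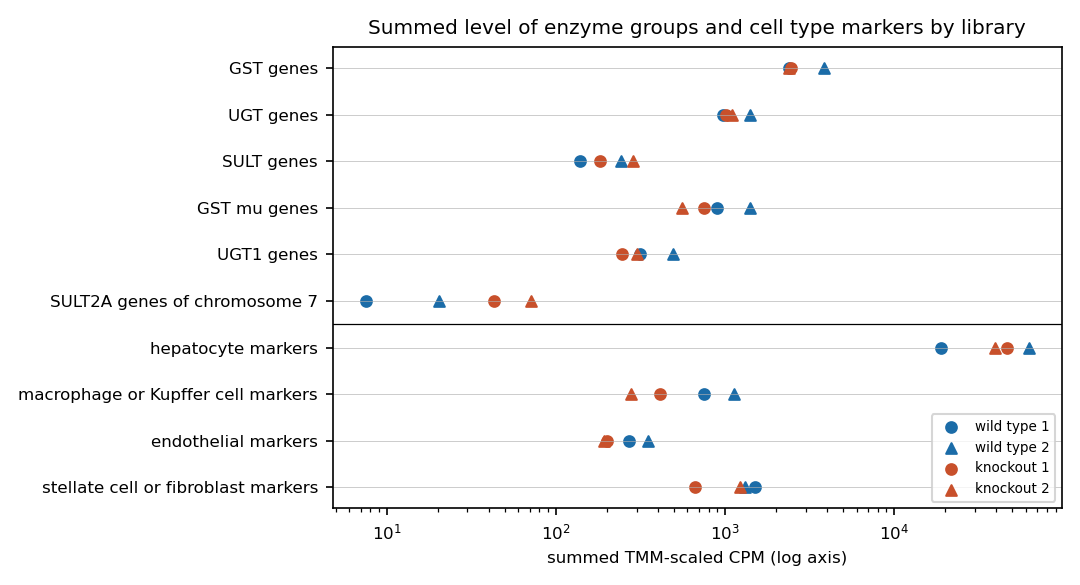
Summed TMM-scaled CPM (log axis) of enzyme groups and of cell type marker lists in each library. Summed GST mu is highest in wild type 2 at 1412 CPM and lowest in knockout 2 at 554 CPM, and summed SULT2A runs from 7.52 CPM in wild type 1 to 71.8 CPM in knockout 2.

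The UGT1 genes are alternative first exons of 1 locus on chromosome 1, joined to the same downstream exons. Of the coding exons, 4, with 735 bases (between 88215044 and 88218421, mm10), are shared by all 9 UGT1 genes, so the split of these reads between the genes is uncertain. The summed UGT1 level does not depend on that split if each shared read was counted for 1 gene only, which no source used here states. It was 313 and 490 CPM in wild type and 246 and 301 CPM in knockout, with knockout 2 close below wild type 1. Ugt1a1, the bilirubin-conjugating enzyme and the UGT1 gene with the highest mean CPM, had 122 and 291 CPM in wild type and 93.7 and 160 CPM in knockout. The groups overlapped, and its log2 ratio of -0.70 (SE 0.49) turned to 0.05 without wild type 2.

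Ugt1a6a, an enzyme for small planar phenols, had 81.1 and 58.9 CPM in wild type and 41.3 and 37.3 CPM in knockout. The groups were separated, with a log2 ratio of -0.83 (SE 0.31, edgeR adjusted p = 0.585) and a range of -1.05 to -0.61 with each library left out in turn. Its neighbour Ugt1a6b, 98.4% identical in coding sequence, had 25.8 and 41.6 CPM in wild type and 41.9 and 21.3 CPM in knockout, with the highest and the lowest value both in knockout. Ugt1a10 (5.5 and 6.17 against 1.91 and 3.09 CPM) and Ugt1a7c (13.2 and 22.7 against 11.8 and 12 CPM) were also separated downward. Ugt1a5 was the only UGT1 gene separated upward, at 11.9 and 21.6 CPM in wild type and 24.4 and 26 CPM in knockout (log2 ratio 0.59, SE 0.40). Ugt1a9 overlapped, at 53.2 and 41.3 against 27.7 and 41.4 CPM. Ugt1a2 had 0 counts in wild type 1, which allows up to 0.163 CPM, 114 in wild type 2, 50 in knockout 1 and 2 in knockout 2. Ugt1a8, with 3 counts in all, was not tested.

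UGT2 genes, which act mainly on steroids, bile acids and drugs, lie together on chromosome 5 and had small log2 ratios. Of 7 tested genes 4 lay above 0 and 3 below, and the widest was 0.74. Ugt2a3 had 19.9 and 28.3 CPM in wild type and 39.4 and 41.2 CPM in knockout, a log2 ratio of 0.74 (SE 0.32, edgeR adjusted p = 0.612). Both knockout libraries were high and close together, and the value kept its sign without any 1 library (0.48 to 1.02). Ugt2b34 was steady at 191 and 179 against 214 and 208 CPM (95% interval of the log2 ratio -0.52 to 0.90). Ugt2b1 had 43.6 and 26.8 against 43.8 and 50 CPM, and Ugt2b35 74.3 and 71.3 against 62.9 and 61.6 CPM. These 3 genes were separated, with log2 ratios of 0.19, 0.41 and -0.23.

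Ugt2b5, the most abundant UGT, was at 334 CPM in wild type 2 and between 161 and 194 CPM in the other libraries. Its log2 ratio of -0.39 turned to 0.23 without wild type 2. Ugt2b38, whose coding sequence is 97% identical to that of Ugt2b5, had 16.7 and 23.5 against 19.7 and 8.83 CPM, and Ugt2b36 had 93.2 and 202 against 161 and 174 CPM. Ugt2b37, with 32 counts, and Ugt2a1 and Ugt2a2, with 0, were not tested. The half-site AGGTCA, which nuclear receptors bind, was found on either strand in 11 member windows (15.3%), against 14% of all windows. In Ugt2b36, Ugt2b38, Ugt2b5 and Ugt2b37 it began 25, 25, 22 and 39 bases before the start.

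The UGT3 and UGT8 enzymes use sugars other than glucuronic acid. Ugt8a, the ceramide galactosyltransferase of myelin lipid synthesis, had 85 and 25 counts in wild type against 4 and 11 in knockout. Both knockout libraries were lower than both wild type libraries, at 0.247 and 0.694 CPM against 4.63 and 1.62 CPM. The log2 ratio was -2.72 (SE 0.84, edgeR adjusted p = 0.547) and ran from -3.63 to -1.80 with each library left out in turn. Ugt3a1 was separated downward, with 23.7 and 15.5 against 8.57 and 14.3 CPM. Ugt3a2, 93.2% identical in coding sequence, was not, with 36.3 and 34.8 against 35 and 44.8 CPM.

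SULT2A genes, whose enzymes sulfate bile acids and the steroid DHEA, lie together on chromosome 7 (13623967 to 14494230). Of 8 genes 6 were tested. Sult2a1, Sult2a2, Sult2a3 and Sult2a5 were separated upward, as were 21.9% of all tested genes. Sult2a8 was positive but overlapped and Sult2a6 was negative (log2 ratio -0.37). Sult2a3 and Sult2a5 passed the filter on low counts only through their 2 knockout libraries, so their separation is a description and supports no count over the group. Sult2a1 had 44 and 68 counts in wild type 1 and 2 and 386 and 232 in knockout 1 and 2. Those are 2.4 and 4.42 CPM against 23.8 and 14.6 CPM, so the lower knockout library was above the higher wild type library. Its log2 ratio was 2.50 (SE 0.49, 95% interval 1.34 to 3.65) with an edgeR adjusted p of 0.434, the smallest of the members. DESeq2 called it (2.48, adjusted p = 1.73e-03), and with each library left out in turn edgeR gave 2.08 (without knockout 1) to 3.0 (without wild type 2) and no call.

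Sult2a5 had 2 and 2 counts in wild type against 26 and 18 in knockout. The ratio of knockout to wild type was 11.6 with an exact 95% counting interval of 4.22 to 44.4, which does not cover the spread between mice. Sult2a2 (14 and 54 against 124 and 87 counts) and Sult2a3 (3 and 9 against 20 and 18) were also separated upward, with log2 ratios of 1.63 (SE 0.74) and 1.67 (SE 0.82). Sult2a2 was at 0.88 and Sult2a3 at 0.98 without wild type 1. Sult2a8, a bile acid sulfotransferase, had 3.98 and 10.8 CPM in wild type and 7.9 and 49.3 CPM in knockout. Knockout 2 alone was high, and the log2 ratio of 1.96 was 0.10 without it. Sult2a6 had 2, 11, 10 and 0 counts in wild type 1 and 2 and knockout 1 and 2, Sult2a7 had 9 counts in all and Sult2a4 had 0. Periportal hepatocyte markers were read beside these values. Of 11, all tested, 9 were positive and 6 (54.5%) separated upward, against 21.9% of all tested genes. Knockout 1 was the highest library for 8. Their sums overlapped, at 2950 and 3865 CPM in wild type and 4915 and 3750 CPM in knockout. Sds, a serine dehydratase, had 1.74 and 34.6 against 239 and 138 CPM, Hal, the histidine ammonia-lyase, 7.68 and 18.4 against 41.7 and 29.7 CPM, and Cyp2f2 18.6 and 73.8 against 175 and 92.6 CPM. Of 12 pericentral hepatocyte markers, all tested, 7 were positive and 1 was separated upward. That marker, Lgr5 (0.218 and 0.585 against 0.679 and 0.946 CPM), passed the filter on low counts only through its knockout libraries. It supports no count over the pericentral list. The pericentral sums overlapped, at 279 and 861 CPM in wild type and 194 and 1193 CPM in knockout. The part of the periportal and pericentral markers in the SULT2A values was not tested. The 3 nearest tested genes on each side of the SULT2A cluster had log2 ratios from -0.77 (Ehd2) to 0.99 (Pla2g4c). Of these 6, 0 were separated upward, against 21.9% of all tested genes.

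These SULT2A genes resemble each other closely, which bears on how far their counts can be told apart. The coding sequence of Sult2a1 was 94.9% identical to that of Sult2a5 over its whole length and 98.3% identical to that of Sult2a2 over the aligned 55.2%. The stretch from coding base 241 to 360 is shown. Of the 120-base stretches aligned without a gap in the 4 genes separated upward, it holds the most differences from Sult2a1. Capitals mark bases that differ from Sult2a1, with 4 in Sult2a2, 8 in Sult2a5 and 12 in Sult2a3, all 5′ to 3′ from GENCODE M21 transcripts.
Sult2a1: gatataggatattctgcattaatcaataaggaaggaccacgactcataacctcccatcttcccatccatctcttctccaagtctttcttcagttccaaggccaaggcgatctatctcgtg
Sult2a2: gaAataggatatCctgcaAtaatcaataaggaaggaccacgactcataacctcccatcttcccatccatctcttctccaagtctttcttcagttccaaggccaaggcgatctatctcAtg
Sult2a5: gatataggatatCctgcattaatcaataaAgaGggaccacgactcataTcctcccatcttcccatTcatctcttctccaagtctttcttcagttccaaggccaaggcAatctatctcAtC
Sult2a3: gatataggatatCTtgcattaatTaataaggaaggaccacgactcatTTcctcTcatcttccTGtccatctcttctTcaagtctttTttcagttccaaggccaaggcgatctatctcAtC

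The 250 bases upstream of Sult2a5 (chr7:13623717-13623966, plus strand) and Sult2a3 (chr7:14123049-14123298, minus strand) are shown as those of the 2 genes of the separated set found in the promoter table. They were 88.1% identical over 227 aligned bases. The core TTCNNNGAA, to which STAT factors bind, was in 4 member windows on either strand (5.56%), against 7.02% of all windows. Neither it nor the 3 cores above was in this pair, so neither sequence holds capitals. Sult2a1 and Sult2a2 were not matched in the promoter table.
Sult2a5: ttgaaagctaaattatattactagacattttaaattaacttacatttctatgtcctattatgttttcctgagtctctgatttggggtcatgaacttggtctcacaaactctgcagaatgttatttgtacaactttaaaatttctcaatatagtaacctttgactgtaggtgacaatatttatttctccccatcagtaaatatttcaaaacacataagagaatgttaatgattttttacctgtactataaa
Sult2a3: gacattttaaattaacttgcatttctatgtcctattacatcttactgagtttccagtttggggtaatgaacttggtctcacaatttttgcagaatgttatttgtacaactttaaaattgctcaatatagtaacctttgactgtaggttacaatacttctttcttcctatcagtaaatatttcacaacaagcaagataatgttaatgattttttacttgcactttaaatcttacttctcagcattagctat

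Sult2a transcripts are known to be higher in female than in male mouse liver, so a list of 12 other female-biased liver genes was read beside them. Of 10 tested, 6 had a positive log2 ratio (median 0.13). At an unadjusted edgeR p under 0.05 there were 3 higher and 1 lower, against 3.95% and 4.35% of all tested genes. Cyp2b9 had 0.109 and 0.715 CPM in wild type and 13.6 and 1.45 CPM in knockout, and Cyp3a41a 0.272 and 0.975 against 2.47 and 3.22 CPM, both higher in knockout. Prom1, which also marks bile duct cells, was lower, with 2.4 and 31.1 against 1.54 and 0.946 CPM. The summed level of the list was 66.6 and 88.6 CPM in wild type and 91.1 and 60.4 CPM in knockout. Of 9 tested male-biased genes 4 were positive (median -0.13), and Cyp4a12b had 9.04 and 10.7 against 2.41 and 4.29 CPM. Sult3a1, a strongly female-biased sulfotransferase of mouse liver, had 0 counts in every library, and Y-linked genes were present in all 4.

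Of the SULT1 genes, Sult1c2 was the only one separated between the groups. It had 27.4 and 62.8 CPM in wild type and 20.5 and 15.4 CPM in knockout, a log2 ratio of -1.33 (SE 0.45, edgeR adjusted p = 0.554). Without wild type 2 it was -0.61, and without wild type 1 it was -1.83. Each of these fits leaves 1 wild type library, so the spread between wild type mice is not measured there. Sult1a1, the main phenol sulfotransferase, had 48.1 and 118 CPM in wild type and 74.8 and 119 CPM in knockout, with both replicates numbered 2 on top. Its sign turned from 0.22 to -0.31 without wild type 1 and to -0.15 without knockout 2. Sgf29, on the opposite strand, shares exon sequence with Sult1a1. Sult1d1, which sulfates catecholamines, had 47.4 and 24.8 against 34.1 and 69.9 CPM, with knockout 2 highest. Sult1b1, an enzyme for thyroid hormones, had 1.96 and 4.87 against 3.76 and 4.54 CPM. The oestrogen sulfotransferase Sult1e1 had 26 counts in all and Sult1c1 had 0, and neither was tested.

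Of the other sulfotransferases 1 was tested. Sult4a1, a brain protein of uncertain activity, had 4.19 and 10.1 CPM in wild type and 6.29 and 2.78 CPM in knockout, overlapping. The cholesterol sulfotransferase Sult2b1 had 29 and 9 counts in wild type against 0 and 9 in knockout, where 0 allows up to 0.185 CPM, and shares exon sequence with Lmtk3 on the opposite strand. Sult5a1 had 20 counts in all, Sult6b1 5 and Sult3a2 3, and Sult6b2 had 0.

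The genes that supply and clear conjugates were taken from lists and read in the same fit, where 0 passed. Of 16 tested genes for cofactors and conjugate removal, 7 lay above 0 and 9 below (median log2 ratio -0.21). Ggt1, which cleaves glutathione conjugates, was at 2.23 and 6.95 CPM in wild type and 88.8 and 21.5 CPM in knockout (log2 ratio 3.59, SE 0.82, edgeR adjusted p = 0.545). Both knockout libraries were higher, with knockout 1 far above knockout 2. Slc35b2, the Golgi transporter of the sulfate donor PAPS, had 112 and 128 against 69.2 and 53.6 CPM, and Bpnt1, a phosphatase that clears its by-product, 141 and 126 against 87 and 89.4 CPM. The cytosolic PAPS synthases varied within wild type, with Papss1 at 49.4 and 15.7 against 26.5 and 24.3 CPM and Papss2 at 50.1 and 13.1 against 25.4 and 26.9 CPM. Ugdh, which makes UDP-glucuronic acid, had 176 and 188 against 223 and 206 CPM. Gclc, the catalytic subunit of the first enzyme of glutathione synthesis, had 203 and 204 against 299 and 331 CPM, and both were separated upward.

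Of 9 efflux transporter genes 4 were positive and 5 negative (median -0.25). Abcc5 (15.2 and 11.6 against 28.6 and 36.2 CPM) and Abcc6 (36.4 and 9.1 against 57.2 and 90.1 CPM) were separated upward. Abcc4, a basolateral pump for sulfated bile acids, was separated downward, with 6.59 and 6.5 against 2.96 and 2.14 CPM. Abcc2, the canalicular pump for glucuronide and glutathione conjugates, had 256 and 180 against 308 and 357 CPM. Of 17 other conjugating enzymes 7 were positive and 10 negative (median -0.05), among them the epoxide hydrolase gene Ephx1 at 172 and 523 against 140 and 165 CPM.

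Of 19 regulators 12 overlapped between the groups, 8 were positive and 11 negative (median -0.06). The share separated was 36.8%, against 42.0% of all tested genes. The 3 regulators with the smallest unadjusted edgeR p were separated, in both directions. Maff was lower, with 11.2 and 23.3 against 9.13 and 9.71 CPM. Bcl6 (21.2 and 16.8 against 23.9 and 34.8 CPM) and Mafg (91.9 and 71.7 against 104 and 125 CPM) were higher. Nfe2l2, which encodes NRF2, had 99.6 and 90.4 CPM in wild type and 86 and 95.4 CPM in knockout, and Nr1i2, which encodes PXR, 128 and 188 against 122 and 144 CPM. Nr1i3, which encodes CAR, was low in both replicates numbered 1 (3.16 and 9.81 CPM) and higher in both numbered 2 (39.5 and 59 CPM). Of 16 NRF2 targets outside the GST and UGT families 7 were positive and 9 negative (median -0.12). Of these 16, 2 were separated upward (12.5%, against 21.9% of all tested genes) and 4 downward (25%, against 20.1%). Gclc, given above, was among those separated upward. Hmox1 (81.7 and 95.1 against 51.5 and 32.1 CPM) was among those separated downward. Nqo1, the quinone reductase, had 7.46 and 4.09 against 0.0617 and 2.59 CPM. Its value in knockout 1 is 1 count, under the floor of 3 counts. The log2 ratio of Nqo1 was -2.12 (SE 1.17, edgeR adjusted p = 0.643). Of 10 CAR, PXR and AHR targets 4 were positive (median -0.17).

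**Figure D5:**
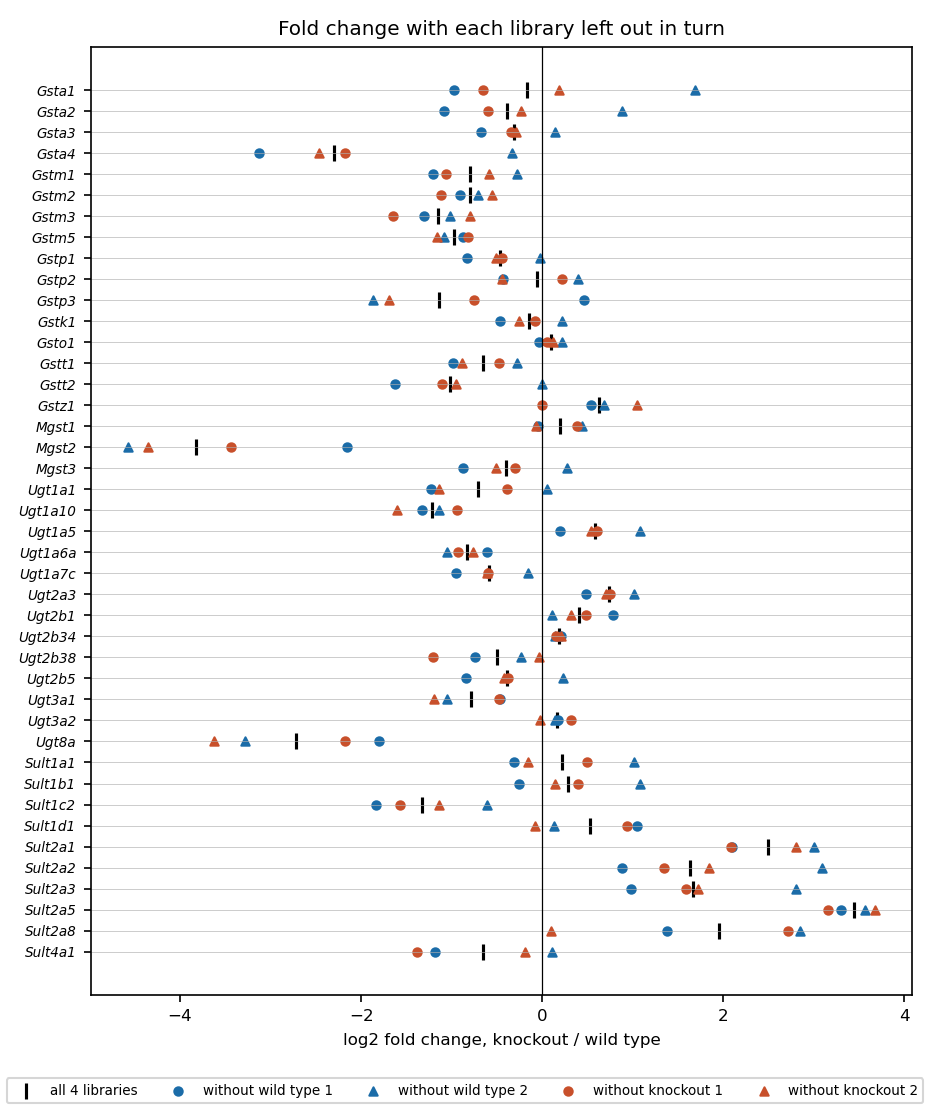
Log2 ratio of the 42 members chosen by rank or size of change, over all 4 libraries (bars) and with each library left out in turn (points). The sign turned for 16 of them, among them Gsta1 and Ugt1a1, while Gstm3, Mgst2, Ugt8a, Sult2a1 and Sult2a5 kept theirs.

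With each library left out in turn, the sign of 26 of those 42 members held, and that of the 16 others turned in at least 1 fit. Over all 52 tested members it turned for 22. All 7 GST mu genes were negative without any library other than wild type 2, and 6 without that one.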

How the data were processed

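Bulk tumour RNA was sequenced from 4 mice, and the authors deposited 1 table of 55487 genes with raw counts and FPKM. Per the labels' protocols, RNeasy columns gave the RNA and the library kit selects mRNA. HISAT2, SAMtools 1.3.1, StringTie, edgeR and mm10 appear in the submitters' processing notes with no roles. No source used here states whether counting used strand. Of 16106 genes with a total of at least 40 counts, 100% had deposited FPKM equal to the count scaled by 1 gene length and the column total, within 1%, so FPKM served only to compare levels between genes. Symbols and spans came from GENCODE M21, and the deposited spans of all 68 members equalled it.

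Counts were filtered with edgeR's filterByExpr by group, scaled by TMM and tested with the quasi-likelihood F test (two-sided; edgeR 4.0.16 in R 4.3.3), and p-values were adjusted by Benjamini-Hochberg over 16310 genes at a threshold of 0.05. CPM is TMM-scaled. A floor of 3 counts is 0.163 to 0.195 CPM, and floors and counting intervals cover counting error only. Replicates are labelled as separate mice. A permutation test of 2 against 2 cannot give a two-sided p below 0.333. Coding sequences were compared with BLAST 2.17.0 and MAFFT 7.526, and near-identical pairs are named because their reads may be shared. On simulated data for knockout against wild type (16310 genes), calls were made for 0 of 50 genes set to differ 2-fold. At 4-fold 29 of 50 were called and at 8-fold 47 of 50, and 13 unchanged genes were called. Genes set to differ were drawn from those with a mean above 5 CPM, so these rates do not cover members below that level. The simulated spread was set from each gene's own estimate in the fit.

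Members, lists and motifs were chosen with earlier results of these data known. Members with tests in the text were, within each subfamily, up to 4 tested genes with the smallest p and 2 with the highest level, plus those with an absolute log2 fold change of at least 1 whose libraries did not overlap. Other members were named to account for all. Of each list, up to 3 tested genes with the smallest p could be named, and for several lists not all of them were. Papss1, Papss2, Ugdh, Gclc, Abcc2, Nfe2l2, Nr1i2, Nr1i3 and Nqo1 were chosen after values were seen. Alternatives were DESeq2's (1.42.0) size factors or library totals, no filter or a mean of at least 5 CPM, DESeq2, limma-voom (limma 3.58.1), a replicate block, and leaving out each library in turn with the same tested genes, where a group of 1 is taken to vary as the other group does. Counts of signs among GST mu and SULT2A genes under these settings were added after seeing the data.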

Additional observations from a re-analysis of the deposited data

How the results depend on the processing

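Members called numbered 0 under both other scalings, both filters and limma-voom, and 2 under DESeq2. Without 1 library they numbered 0 to 3, with 3 without wild type 1 (Gsta4, Gstt2, Sult1c2) and 1 without wild type 2 (Mgst2). Over all genes the calls numbered 1 with library totals, 148 with DESeq2, 1 with limma-voom and 0 to 222 without 1 library. With the replicate block 0 members and 4 genes of the table were called. The replicate numbers mark no shared litter or batch in the labels, and same-numbered libraries' deviations correlated at 0.12. The block turned Gsta1 from -0.17 to 0.30, as limma-voom did to 0.35. Members whose groups did not overlap numbered 24 of 52 with all libraries, against 42% of all tested genes. With 1 left out they numbered from 32 of 52 (without knockout 2, against 63.1% of all tested genes) to 46 of 52 (without wild type 1, against 80.8%). Fewer samples make separation more frequent. The tools and the block have no such count. The GST median ran from -0.83 (without wild type 1) to -0.002 (without wild type 2), the UGT median from -0.45 to 0.078 (without wild type 2; -0.24 without knockout 2) and the SULT median from 0.14 (without knockout 2) to 1.45 (without wild type 2). The UGT median was also -0.20 at a mean of 5 CPM, where 3 genes fewer were tested, and -0.26 with limma-voom. At a mean of 5 CPM only 2 SULT2A genes were tested, both positive. The sign turned with 1 library left out for 22 of 52 tested members, 16 of them among the 42 chosen by rank or size, and the cause was not tested. The other 6 were Gstm4, Gstt3, Sult2a6, Ugt1a2, Ugt1a6b and Ugt2b36. Over the 4 such fits, log2 fold changes that turned without wild type 2 ran for Gsta2 from -1.09 to 0.88, Gsta3 from -0.67 to 0.14, Gstk1 from -0.47 to 0.22, Mgst3 from -0.88 to 0.27, Sult4a1 from -1.39 to 0.11, Ugt1a1 from -1.22 to 0.052 and Ugt2b5 from -0.84 to 0.23. Those that turned without wild type 1 ran for Gsto1 from -0.037 to 0.22, Gstp3 from -1.87 to 0.46 and Sult1b1 from -0.26 to 1.08. Without wild type 1 and also without knockout 2 the sign turned for Mgst1 (range -0.063 to 0.44) and Sult1a1 (range -0.31 to 1.01). Without knockout 2 it turned for Sult1d1 (range -0.082 to 1.04) and Ugt3a2 (range -0.021 to 0.32). Gsta1 (from -0.98 to 1.69) turned without wild type 2 or knockout 2, and Gstp2 (from -0.44 to 0.39) without wild type 2 or knockout 1. Depth limits Sult2a5, Sult2a3, Sult2a6 and Ugt1a2, which had 0 to 3 counts in at least 1 library.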
